A study of Mus musculus with 27 samples.

Results

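Brain endothelial cell genes were followed as a set of 37 members, picked from the 26264 symbols of the deposited table by matching lower-case names (flt1, kdr, slco1a4 and the like). The members were proposed with earlier results of these data in view, among them a difference between mice with 1-letter and 2-letter labels, so that difference is described here for the members without a test. RNA came from cortex blocks of 16-week-old female 5xFAD mice, a transgenic line used as a model of amyloid deposition. Every mouse, controls included, was transgenic and underwent surgery. One hemisphere was microinjected with vehicle, R33 or R55, the last 2 being thiophene thioureas that stabilize the retromer complex, given at 10 mM in DMSO and cyclodextrin, and both hemispheres were collected 24 h later. The 14 mice comprised 4 given vehicle, 5 given R33 and 5 given R55. All but 1 mouse gave an injected and a contralateral library, and the 27 libraries held 15932198 to 38077032 fragments on genes. Mouse labels had 1 letter in 9 mice (3 per treatment) and 2 letters in 5 mice (1 vehicle, 2 R33 and 2 R55), and the labels do not say what the letters stand for.

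Endothelial cells line the blood vessels. In the brain they are joined by tight junctions, take up nutrients through dedicated carriers, pump many drugs back into the blood and are instructed by VEGF, angiopoietin, Notch and Wnt signals from their surroundings. Because whole blocks were sequenced, fewer endothelial cells and less RNA per endothelial cell cannot be told apart.

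Promoters are shown for the 3 members ranked first by fitted p-value over all contrasts, a ranking that came from the label comparison and served only to choose them: Flt1, a VEGF receptor, Slco1a4, an organic anion transporter of the barrier, and Pltp, a phospholipid transfer protein. They run from 250 bases before to 50 bases after the RefSeq gene start on GRCm38.p6, at chr5:147725962-147726261, chr6:141856171-141856470 and chr2:164857659-164857958, all on the minus strand and printed 5′ to 3′. Capitals mark any of 4 motifs on either strand. The motif AGGAAG holds the core bound by ETS factors. Proteins of the SOX family bind ACAATG, and those of the zinc finger family that includes GATA2 bind AGATAA. The box found near many gene starts was searched as TATAAA.
Flt1: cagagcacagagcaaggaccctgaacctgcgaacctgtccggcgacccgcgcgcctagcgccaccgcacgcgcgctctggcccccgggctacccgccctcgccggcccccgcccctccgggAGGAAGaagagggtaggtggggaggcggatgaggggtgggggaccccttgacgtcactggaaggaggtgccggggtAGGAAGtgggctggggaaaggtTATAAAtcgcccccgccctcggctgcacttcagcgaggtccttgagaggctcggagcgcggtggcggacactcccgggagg
Slco1a4: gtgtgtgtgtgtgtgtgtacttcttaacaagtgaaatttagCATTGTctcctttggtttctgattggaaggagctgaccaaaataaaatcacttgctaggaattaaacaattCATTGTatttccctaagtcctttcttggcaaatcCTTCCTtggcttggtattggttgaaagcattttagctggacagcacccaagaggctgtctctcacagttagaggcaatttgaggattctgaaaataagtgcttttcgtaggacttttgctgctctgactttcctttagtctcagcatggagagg
Pltp: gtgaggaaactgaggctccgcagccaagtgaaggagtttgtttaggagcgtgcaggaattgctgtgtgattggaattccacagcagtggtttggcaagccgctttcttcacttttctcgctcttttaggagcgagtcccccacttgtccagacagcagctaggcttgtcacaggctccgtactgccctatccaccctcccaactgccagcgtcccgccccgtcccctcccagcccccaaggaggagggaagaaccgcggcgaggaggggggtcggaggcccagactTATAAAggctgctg
The Flt1 promoter held AGGAAG at 2 places and TATAAA at 1, the latter starting 31 bases before the gene start. The Slco1a4 promoter held AGGAAG once and ACAATG at 2 places, each on the opposite strand, and that of Pltp held TATAAA, which began 36 bases past the start. RefSeq promoters were matched for 25 of the 37 members, as 33 promoters. AGGAAG was present in 54.5% of them and in 35.4% of all 32851 promoters of the same length. TATAAA was present in 24.2% of member promoters and 13.6% of all, ACAATG in 9.1% and 12.6%, and AGATAA in 9.1% and 11.2%. These shares describe the letters in the windows only.

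The markers were detected in the blocks. Levels are given in FPKM, fragments scaled to transcript length and to the library's total, and a mouse value is the mean of its libraries. Over the 27 libraries, the highest means were those of Cd34, a sialomucin of vessel lining (47.6 FPKM), Slc2a1, the glucose transporter of the barrier (37.2 FPKM), and Itm2a, a membrane protein of endothelium (28.9 FPKM). The lowest were Sox17, a SOX transcription factor (1.26 FPKM), Clec14a, a lectin of the endothelial surface (1.11 FPKM), and Tcf15, a bHLH factor of brain endothelium (0.557 FPKM). In all, 11 members exceeded 10 FPKM, 20 lay between 2 and 10 FPKM, and 6 were at or below 2 FPKM. A filter of 1 FPKM on the mean over all libraries kept 12976 genes and 36 of the 37 members, with Tcf15 below it at as few as 5 fragments in a library. Every kept member had at least 50 fragments in every library. The median ratio between the highest and the lowest library was 3.79 over the 37 members, Tcf15 included, against 1.80 over all tested genes. These libraries span both label series, and the members were proposed with that difference in view, so the contrast is not evidence about them. The ratio of highest to lowest library was smallest for the tight junction scaffold Tjp1 (1.92). Among members past the filter it was largest for the clotting factor carrier Vwf (8.83).

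The mice with 2-letter labels had lower levels of nearly all members. Flt1 was 9.24, 9.22 and 9.58 FPKM in the 1-letter vehicle mice and 4.50 FPKM in the 2-letter vehicle mouse. Under R33 it was 6.96, 8.73 and 9.88 FPKM in 1-letter mice and 2.07 and 2.88 FPKM in 2-letter mice. Under R55 it was 8.36, 8.46 and 11.8 FPKM in 1-letter mice and 2.06 and 2.81 FPKM in 2-letter mice. The 2 label series did not overlap within any treatment. Flt1 lies at chr5:147498414-147662826 on GRCm39, on the minus strand, and its fitted log2 difference (2-letter minus 1-letter, on the log2(FPKM + 1) scale, with treatment and hemisphere as terms) was -1.38 with a standard error of 0.13. Kdr, the main signalling VEGF receptor, ranged from 1.66 to 2.92 FPKM with a median of 2.41 in the 9 1-letter mice. In 2-letter mice it was 0.83 FPKM under vehicle, 0.55 and 0.90 under R33, and 0.75 and 0.83 under R55. All 5 were thus below the lowest 1-letter mouse, at a mean that was 3.0-fold lower.

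**Figure D1:**
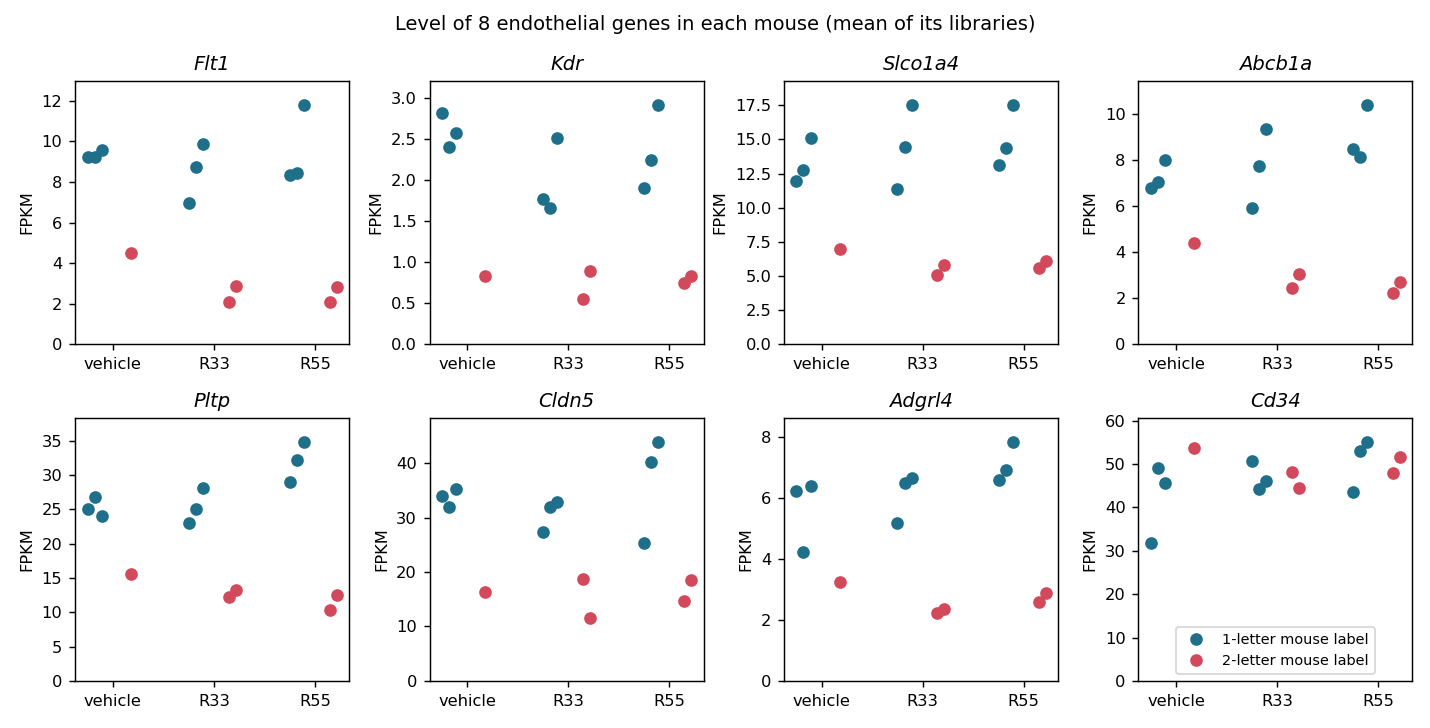
FPKM of 8 members (y axis, from 0) in each of 14 mice by treatment (x axis), 1 point a mouse at the mean of its libraries, coloured by the number of letters in its label. For Flt1, Kdr, Slco1a4, Abcb1a, Pltp, Cldn5 and Adgrl4 every 2-letter mouse lies below every 1-letter mouse, while for Cd34 the series overlap.

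The other receptors followed the same direction. Tek and Tie1, the angiopoietin receptor and its relative, averaged 4.42 and 3.97 FPKM in 1-letter mice and 1.99 and 1.87 FPKM in 2-letter mice. Ptprb, the phosphatase that acts on them, was at 4.71 ± 0.76 FPKM (SD, n = 9) and 2.37 ± 0.84 FPKM (SD, n = 5). The TGF-beta co-receptor Eng differed by -0.68 on the log2 scale, and Robo4, a guidance receptor of vessels, by -0.73 (SE 0.09). All 7 vascular receptors and partners were lower, with differences from -1.38 to -0.68.

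Barrier transporters were lower to different degrees. Slco1a4 ranged from 11.3 to 17.5 FPKM (median 14.4) in 1-letter mice and was 7.0, 5.08, 5.77, 5.57 and 6.13 FPKM in the 2-letter mice AH, AD, AE, AA and AB. Its series did not overlap, and the log2 difference was -1.12 (SE 0.11). Abcb1a, a P-glycoprotein drug pump, ranged from 5.92 to 10.4 FPKM (median 8.01) in 1-letter mice. In AH, AD, AE, AA and AB it was 4.40, 2.45, 3.06, 2.23 and 2.70 FPKM, a difference of -1.17 on the log2 scale (SE 0.14). For Slco1c1, the thyroid hormone carrier, the means were 20.9 ± 2.38 FPKM (SD, n = 9) and 11.7 ± 1.28 FPKM (SD, n = 5). Slc2a1 differed by -0.48, the drug pump Abcg2 by -0.36 and the lipid carrier Mfsd2a by -0.35, and these 3 overlapped between the series.

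Tight junction and surface genes differed by -1.0 to 0.09 on the log2 scale. Cldn5, the main claudin of the barrier, ranged from 25.3 to 43.9 FPKM (median 32.9) in 1-letter mice and was 16.3, 18.7, 11.5, 14.8 and 18.6 FPKM in AH, AD, AE, AA and AB, a log2 difference of -1.0 (SE 0.13). Ocln and Cgnl1, an occludin and a cingulin relative, differed by -0.60 and -0.57, and Tjp1 by -0.22 with overlapping series. Adgrl4, an adhesion receptor of endothelium, ranged from 4.23 to 7.83 FPKM (median 6.49) in 1-letter mice and was 3.25, 2.21, 2.35, 2.59 and 2.87 FPKM in the 2-letter mice, a difference of -1.0 (SE 0.12). Podxl, a surface protein, differed by -0.86, and Pecam1 and Cdh5, which serve adhesion and cell contacts, by -0.82 and -0.81. The surface proteins Emcn and Esam differed by -0.77 and -0.47 without overlap. Ly6c1, Itm2a and Ly6a differed by -0.59, -0.57 and -0.485, and Clec14a by -0.20, each with overlap. Cd34 was 46.6 ± 6.80 FPKM (SD, n = 9) in 1-letter mice and 49.1 ± 3.55 FPKM (SD, n = 5) in 2-letter mice, and was the single tested member with a positive difference (0.09, SE 0.11).

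Secreted proteins and transcription factors completed the set. Pltp ranged from 22.9 to 34.8 FPKM (median 26.7) in 1-letter mice and was 15.5, 12.2, 13.2, 10.3 and 12.5 FPKM in AH, AD, AE, AA and AB, with no overlap and a log2 difference of -1.04 (SE 0.11). Nos3, endothelial nitric oxide synthase, differed by -0.63 and Vwf by -0.65, the latter with overlap because AH held 4.28 FPKM. Egfl7, a secreted angiogenic factor, differed by -0.20. The ETS factor Erg and the SOX factors Sox18 and Sox17 differed by -0.55, -0.53 and -0.49, and the ETS factor Ets1 by -0.24. Tcf15, below the filter, averaged 0.637 ± 0.316 FPKM (SD, n = 9) and 0.406 ± 0.108 FPKM (SD, n = 5).

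Counted together, 35 of the 36 tested members were lower in 2-letter mice (52.4% of all genes), with a median of -0.64 against -0.01 over all tested genes. Mouse means did not overlap for 23 members, all lower, where 1.68% of all genes were lower without overlap. These counts follow from how the members were proposed and are not evidence about them. Summarized as the mean log2(FPKM + 1) of the 36 members, 1-letter mice ran from 2.94 to 3.45 and 2-letter mice from 2.43 to 2.68. Mouse R, given R55, held the highest value for 27 of 36 members, and mouse AD, given R33, the lowest for 15.

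Genes outside the set were then compared between the label series, with p-values adjusted over all 12976 genes and tested at 0.05, the threshold used throughout. These lists had also been chosen with earlier results known, so calls on them are not independent evidence of the label difference. Of 27 other endothelial genes, 23 were tested, and 13 were lower and none higher in limma at an adjusted p-value under 0.05, with a median of -0.45, where 5.86% of all genes were lower. Cxcl12, a chemokine made by vessel cells, fell by 0.73 on the log2 scale (SE 0.10, adjusted p = 6.9e-05 in limma), and Lsr, a receptor of tricellular junctions, fell by 0.66 (SE 0.11, adjusted p = 0.000719 in limma). S1pr1 (0.06), Ramp2 (-0.13) and Slc7a5 (-0.09) did not pass the test. Of 34 genes of VEGF, angiopoietin, Notch and Wnt signalling, 31 were tested, of which 7 were lower and 1 higher, with a median of -0.10. Among ligands Vegfa fell by 0.36 on the log2 scale (adjusted p = 0.0134 in limma), while Vegfb rose by 0.29 (adjusted p = 0.0332). The Wnt-responsive factor Lef1 fell by 0.77 and the BMP receptor Acvrl1 by 0.58. None of the 9 tested activation genes of 14 listed passed the test (median 0.08), and Icam1 and Vcam1, adhesion molecules of inflamed vessels, differed by 0.08 and 0.06.

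Markers of other cells were measured in the same comparison. Of 16 mural cell markers 14 were tested, with 1 lower (Rgs5, -0.60), 1 higher (Anpep, 0.34) and a median of -0.04, and Pdgfrb, the defining receptor of pericytes, differed by -0.03. Of 11 vascular fibroblast markers 10 were tested and 5 were higher, none lower, with a median of 0.64. Their summed level ran from 25.1 to 87.9 FPKM in 1-letter and from 37.6 to 124 FPKM in 2-letter libraries. Of 10 microglia markers 6 were higher (median 0.48, against 4.5% of all genes higher), and 1 of 10 astrocyte markers was higher. None of 10 neuron, 10 oligodendrocyte or 7 choroid plexus and ependymal markers passed the test, although the last had a median of -0.64 and summed to as much as 1679 FPKM in 1-letter and 64.7 FPKM in 2-letter libraries. Red blood cell markers rested on Alas2 (0.64, adjusted p = 0.0236 in limma), since 4 hemoglobin genes were listed at 0 in every library. The part of these cells in the lower endothelial levels was not tested.

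**Figure D2:**
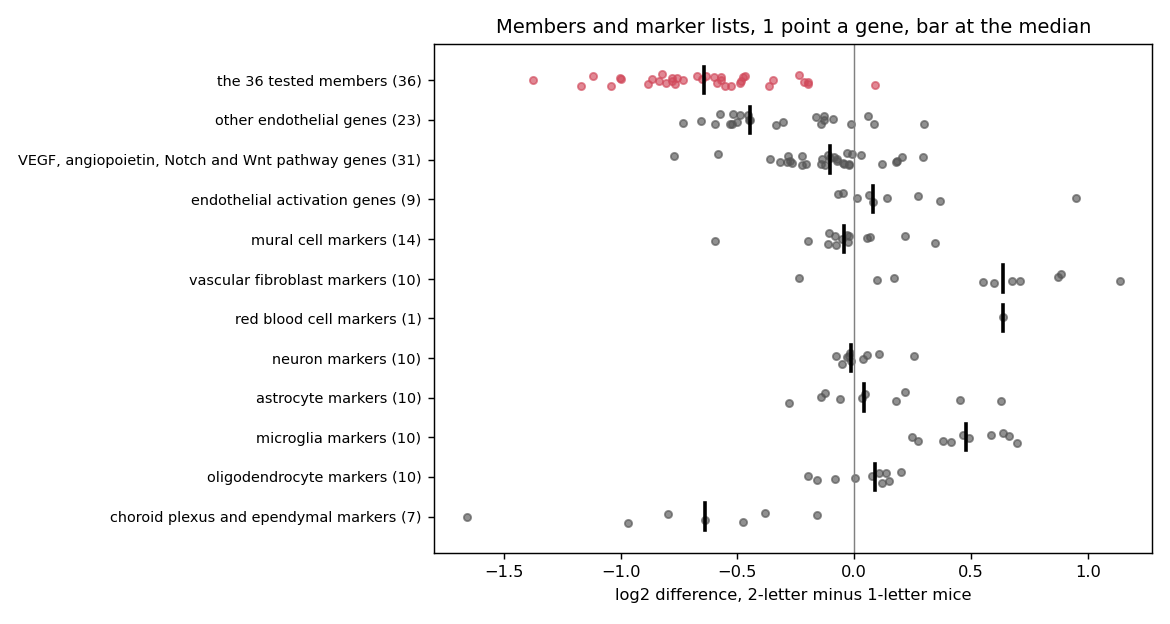
Fitted log2 differences between 2-letter and 1-letter mice (x axis) for the 36 tested members and 11 marker lists (y axis, with the number of tested genes), 1 point a gene and a bar at the median. The members have a median of -0.64 and the other endothelial genes one of -0.45. Mural and neuron markers have medians near 0, with single mural markers from -0.60 to 0.34. Vascular fibroblast and microglia markers have medians of 0.64 and 0.48.

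Whether the compounds altered endothelial genes was addressed by comparing treatments over both hemispheres. No tested member passed the test in any of the 3 treatment contrasts, and 0.0% of all genes did in each. None of the 36 had an unadjusted p-value under 0.05 either, against 4.0% of all genes for R55 over vehicle, 2.25% for R33 over vehicle and 0.424% for R55 over R33. R55 held more 2-letter mice than vehicle did, and a fit with label letters as a term is given below. Without that term the median of the members under R55 was -0.06 (all genes 0.03), and 26 of 36 were lower, against 39.8% of all genes. The smallest p-value was that of Clec14a, which was 1.01, 0.893, 0.869 and 0.925 FPKM in vehicle mice J, L, M and AH and 1.03, 1.72, 1.68, 0.943 and 0.987 FPKM in R55 mice P, Q, R, AA and AB. The R55 mice were all above the vehicle mice L, M and AH, but overlapped mouse J, and the difference was 0.22 with a 95% interval of -0.002 to 0.44 (unadjusted p = 0.0518, adjusted p = 0.90 in limma). Flt1 averaged 8.14 ± 2.43 FPKM (SD, n = 4) under vehicle and 6.70 ± 4.14 FPKM (SD, n = 5) under R55, a difference of -0.41 with an interval of -1.13 to 0.31. For 35 of 36 members the interval stayed within 1 log2 unit on either side of 0. The fit used 1 correlation within a mouse for all genes (0.347). Mean member levels had an SD of 0.378 between mice of a treatment, and hemisphere differences within a mouse one of 0.216. Treatment intervals of the members may therefore be too narrow.

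R33 gave a median of -0.12 (all genes 0.02), with 29 of 36 members lower (43.2% of all genes) and none past the test. Kdr was 2.82, 2.40, 2.58 and 0.83 FPKM in vehicle mice and 1.77, 1.66, 2.52, 0.55 and 0.90 FPKM in R33 mice. The groups overlapped, and the difference was -0.33 with an interval of -0.82 to 0.16 (adjusted p = 0.997 in limma). Between the compounds, R55 minus R33, the median was 0.07, with the smallest p-value again for Clec14a (0.13, interval -0.09 to 0.34). All 36 intervals of that contrast lay within 1 log2 unit of 0, from -0.67 at the lowest bound to 0.71 at the highest. They may likewise be too narrow, and differences between the compounds remain possible. The treatment groups shared their vehicle mice, and R55 and R33 held more 2-letter mice than vehicle did.

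With the number of label letters as a term the medians became 0.04 for R55 and -0.04 for R33. The direction under R55 reversed, with 25 of 36 members higher and 11 lower, against 38.5% of all genes lower. For R33 26 of 36 were lower, against 42.9% of all genes. The median standard error of the members fell from 0.20 to 0.13, a drop that follows from how the members were proposed. Clec14a and Itm2a then had unadjusted p-values under 0.05 for R55 (0.25 and 0.29, with 2.35% of all genes higher at that level, both adjusted p = 0.916 in limma), and no member passed the test. Among 1-letter mice alone, 5 members were higher under R55 at an unadjusted p-value under 0.05, against 2.22% of all genes, where 0.00771% passed the test, and the median was 0.15. Mean member levels in those mice were 3.12 ± 0.08 for vehicle, 3.13 ± 0.17 for R33 and 3.27 ± 0.20 for R55 (SD, n = 3 each). Tcf15, tested only without the filter, was 1.08, 0.714, 1.22 and 0.539 FPKM in vehicle mice, 0.460, 0.261, 0.466, 0.392 and 0.465 FPKM in R33 mice and 0.469, 0.563, 0.496, 0.249 and 0.383 FPKM in R55 mice. Every R33 mouse was below every vehicle mouse, as for 0.416% of the genes past the filter, while R55 mouse Q exceeded vehicle mouse AH. The differences were -0.41 for R33 and -0.38 for R55 (unadjusted p = 0.000742 and 0.00149, adjusted p = 1.0 and 0.987 in limma), on as few as 5 fragments.

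**Figure D3:**
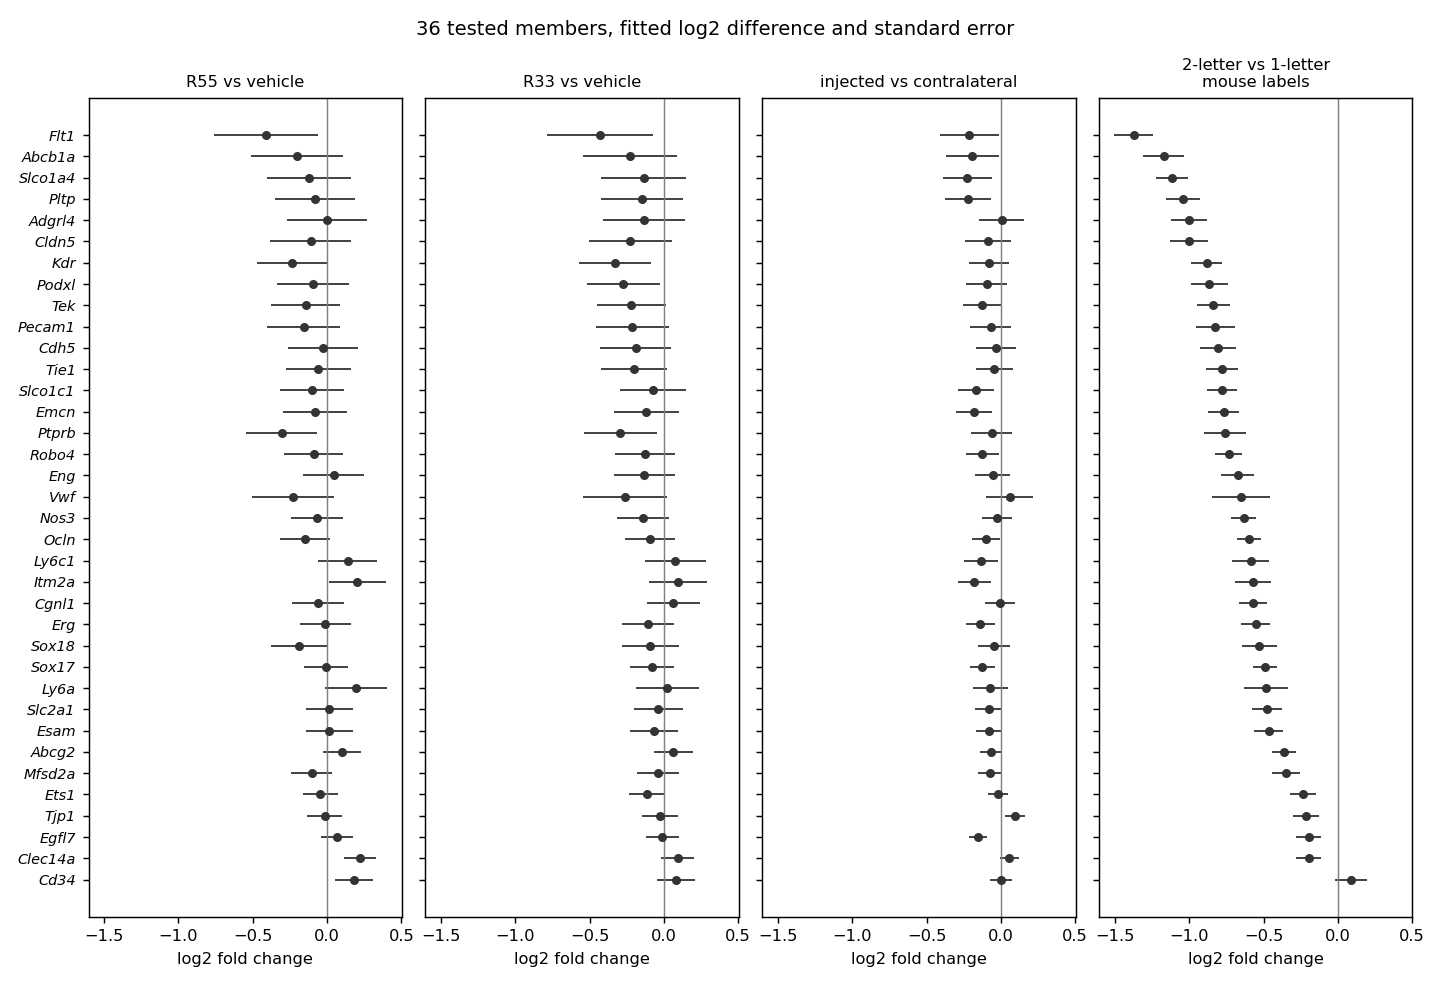
Fitted log2 fold changes (x axis, log2(FPKM + 1) scale) of the 36 tested members (y axis), with bars of 1 standard error, in 4 contrasts. Treatment and hemisphere contrasts lie within 0.43 of 0, while the difference between 2-letter and 1-letter mice reaches -1.38.

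Hemispheres were compared over all treatments, which takes the injection and the compound given on that side together. In vehicle mice alone the median of the members was -0.07. The values that follow are over all treatments. No member passed the test, where 0.00771% of all genes did (1 gene, higher). In the injected hemisphere 31 of 36 members were lower, against 48.2% of all genes, with a median of -0.08 against 0.00. Members often moved together within a mouse, so such counts do not stand for as many separate results. Egfl7 was the single member with an unadjusted p-value under 0.05, against 3.64% of all genes lower at that level. Its libraries ran from 12.3 to 19.9 FPKM in the injected hemisphere and from 14 to 25.7 FPKM in the contralateral one. It was lower on the injected side in 9 of the 13 mice with both libraries, and the difference was -0.15 (SE 0.06, unadjusted p = 0.0194, adjusted p = 0.618 in limma). With mouse as a fixed effect (a replicate block over the 13 pairs), 4 members were lower at an unadjusted p-value under 0.05, against 3.02% of all genes, and none passed the test. Endothelial activation genes had a median of 0.12, with 3 of 9 higher at an unadjusted p-value under 0.05, against 3.27% of all genes, and none past the test. These 3 were Lcn2 (0.92), Il1r1 (0.19) and Ch25h (0.30), while Vcam1, Plvap and Ackr1 differed by 0.047, 0.045 and 0.036. Which cells of the blocks held these transcripts was not tested. No member passed the test for injection within any treatment, for a treatment within either hemisphere, or for a treatment effect that differed between hemispheres, contrasts in which 0.0 to 0.0154% of all genes did, and in none of these did limma give a tested member an unadjusted p-value under 0.05.

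The medians after injection differed in sign between the label series. Among 1-letter mice 14 members lay lower on the injected side with an unadjusted p-value under 0.05 and none higher, with a median of -0.15, against 3.04% of all genes lower. Among 2-letter mice 5 were higher and none lower, with a median of 0.14, against 3.7% of all genes higher, and none passed the test in either series. Single mice varied within each series. Of the 36 members, 21, 21, 33, 34, 19, 28, 29, 14 and 35 were lower on the injected side in the 1-letter mice J, L, M, K, N, O, P, Q and R, and 11, 17, 20 and 4 were lower in the 2-letter mice AH, AD, AA and AB. Mouse Q thus went against the other 1-letter mice, with 22 members higher, AA went against the sign of the 2-letter median, and N and AD were nearly even. The difference between the series in this effect was tested as an interaction, a choice made after the values were seen. There 12 members had an unadjusted p-value under 0.05, all positive, against 3.46% of all genes in that direction, and none passed the test, where 0.0231% of all genes did. Markers of other cells moved with them. All 14 tested mural cell markers were positive (median 0.28, 4 at an unadjusted p-value under 0.05). So were all 10 microglia markers (median 0.33, 2 at that level) and 22 of 23 other endothelial genes (median 0.19, 6 at that level). Also positive were 9 of 10 astrocyte markers (median 0.18) and 9 of 10 tested vascular fibroblast markers (median 0.13). Negative were 9 of 10 oligodendrocyte and 7 of 10 neuron markers, where 54.4% of all genes were negative. None passed the test in limma, and their part in the result was not tested. Erg had the smallest p-value. It was lower on the injected side in 8 of 9 1-letter mice and higher on that side in 4 of 4 2-letter mice with both libraries, with an interaction of 0.46 (SE 0.12, unadjusted p = 0.000802, adjusted p = 0.633 in limma). For Ly6a, a surface protein of mouse endothelium, the interaction was 0.69 (SE 0.18, adjusted p = 0.657 in limma), and for Ets1, Cldn5, Tek, Ly6c1, Eng and Nos3 it was 0.35, 0.48, 0.40, 0.45, 0.39 and 0.28, with adjusted p-values up to 0.772 in limma.

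**Figure D4:**
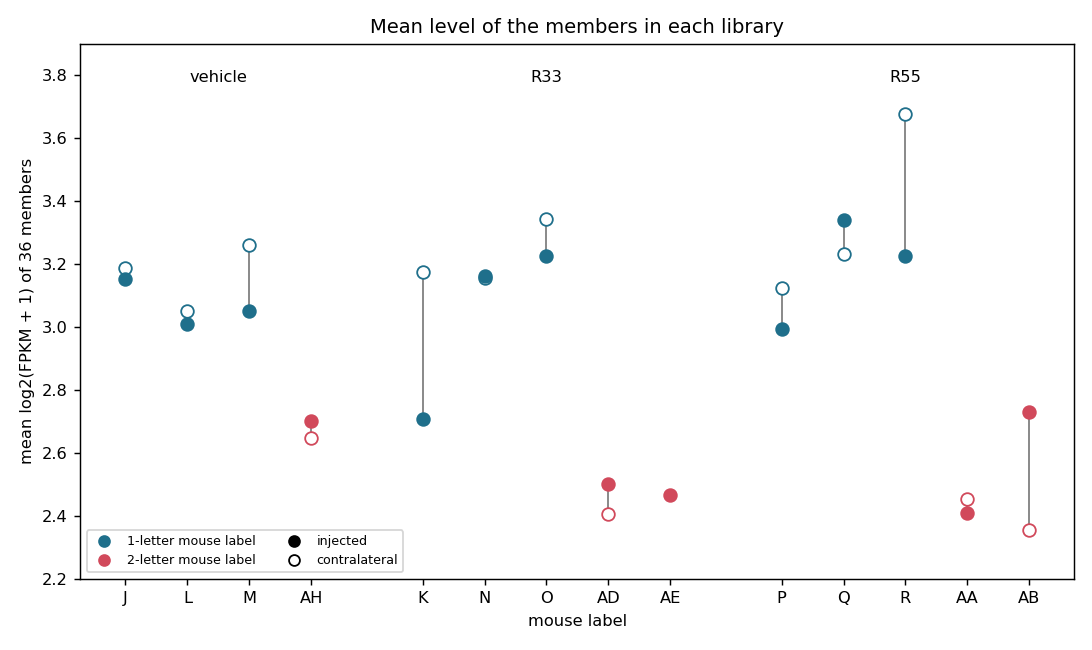
Mean log2(FPKM + 1) of the 36 tested members (y axis) in each library of 14 mice (x axis), with filled points for injected and open points for contralateral hemispheres, joined within a mouse and coloured by label letters. Mouse means of 2-letter mice lie between 2.43 and 2.68 and those of 1-letter mice between 2.94 and 3.45. The injected point is far lower in mice K and R and lower in J, L, M, O, P and AA. It is higher in mice Q, AB, AD and AH, and nearly level in mouse N.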

How the data were processed

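RNA of cortex blocks was measured by stranded mRNA sequencing in 27 libraries of 14 mice, which were grouped by labelled treatment and side. The authors extracted RNA with an RNeasy kit, sequenced paired-end reads on an Illumina NextSeq instrument, aligned them to GRCm39 with HISAT2 and deposited FPKM, and tested genes with DESeq2. The counting tool and annotation are not given in the sources used here. A further 5 libraries of the table are outside the sample list and were not used.

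All FPKM above 0 were whole fragments within 0.01 (100.0%), which gave depths of 15932198 to 38077032 fragments. Differences were fitted with limma 3.58.1 in R 4.3.3 on log2(FPKM + 1), for 12976 genes averaging 1 FPKM or more, with treatment and hemisphere as terms, an intensity trend, and the correlation within a mouse modelled (0.347). Benjamini-Hochberg adjusted p-values were called under 0.05. Fold changes on this scale understate those of low genes. The label comparison added the number of label letters. The code was tested on simulated data. Hemispheres were paired by the mouse they share, and the deviations of paired libraries correlated at a median of 0.454 over 13 pairs (lowest -0.079). Positions are from GENCODE on GRCm39 and promoters from RefSeq on GRCm38.p6.

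Members and lists were chosen with earlier results of these data known. The rule gave statistics for members with an unadjusted p-value under 0.05 (at most the 8 smallest a contrast) and for the 3 highest and 3 lowest by level. Other members, among them Clec14a, Kdr and Flt1 in the treatment contrasts, were named after their values were seen. Alternatives are given in the closing section. Antisense overlap was not examined, and Ly6a and Ly6c1 have close relatives whose reads may be shared.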

Additional observations from a re-analysis of the deposited data

Results flagged for a closer look

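Single mice were flagged as apart from their group for 7 of the 115 combinations of gene and group examined. That share is near the 1 in 20 that chance alone gives. Among the 4 vehicle mice, AH, the one with a 2-letter label, was low for Flt1 (4.50 FPKM, others 9.22 to 9.58), Eng (6.20 FPKM, others 8.75 to 9.14) and Itm2a (19.5 FPKM, others 27.4 to 28.9). These flags of AH repeat the label difference described above and are not separate evidence. Mouse R, given R55, was high among the 9 1-letter mice for Tek (6.14 FPKM, others 3.65 to 4.78) and Eng (14.9 FPKM, others 7.78 to 11.2). Mouse J, given vehicle, was low among the same mice for Cd34 (31.8 FPKM, others 43.6 to 55.1). Mouse O was high among the 5 R33 mice for Ets1 (3.87 FPKM, others 2.43 to 2.75).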

How the results depend on the processing

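The count of members past the test was 0 in every treatment and hemisphere contrast under every alternative run. Over both hemispheres, member medians of 2 treatment contrasts changed sign with the mouse left out. They ran from -0.18 to 0.08 for R55 over vehicle and from -0.07 to 0.21 for R55 over R33. Within a hemisphere, the sign also changed for R55 over vehicle (-0.127 to 0.093 injected, -0.252 to 0.074 contralateral). In the contralateral hemisphere it changed for R33 over vehicle (-0.199 to 0.117) and R55 over R33 (-0.192 to 0.12) as well. The R33 over vehicle median ran from -0.227 (without AH) to 0.0 (without AD), and was 0.005 in 1-letter mice. The injection median of -0.08 ran from -0.123 (without AB) to -0.05 (without R), and was -0.15 in 1-letter mice and 0.14 in 2-letter mice. That of the label comparison ran from -0.70 to -0.59, which is no evidence about members proposed with that difference in view.

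Counts over all genes moved more. In the label comparison 1345 genes passed, against 83 in contralateral libraries alone, 741 with mouse means, and 595 to 1778 with each mouse left out. The fewest came without P (595), AH (603), AB (664), K (767), N (812) and AD (857). Its member median was -0.83 in contralateral libraries alone and -0.86 with a pseudocount of 0.1. With no replicate block (mouse not a term) 2477 genes passed there, 1 for R55 over vehicle, 0 for injection and 1 for the label difference between hemispheres. A replicate block with mouse as a fixed effect left 0 genes for injection and changed no call of a member. For injection 1 gene passed, against 2 with median-of-ratios factors, 5 with the trend on gene length removed, 0 without the filter, 0 with label letters as a term, 0 in 1-letter or 2-letter mice alone and 0 to 2 with each mouse left out. R55 over vehicle had 1 gene in 1-letter mice, and R55 over R33 had 0 to 1 with each mouse left out. R55 over vehicle in the contralateral hemisphere had 2 genes, against 1 with median-of-ratios factors, 0 without the filter, 0 with the length trend removed and 0 to 37 with each mouse left out (37 without AD). The label difference between hemispheres had 3 genes, against 1 without the filter and 1 to 5 with each mouse left out. The causes were not tested. Flt1 under R55 over vehicle, -0.41 with all mice, was 0.01 in 1-letter mice, and Erg after injection, -0.14 with all mice, was 0.18 in 2-letter mice. The 2-letter mice alone, the label difference between hemispheres, and all alternatives for contrasts within a hemisphere or treatment were chosen after seeing the data. Low counts limit Tcf15. With 1 vehicle mouse among the 2-letter labels, label and treatment effects are separated through the additive fit or, for treatment, within the 1-letter mice alone.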
